A study of Homo sapiens with 15 samples.

Results

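Small heat shock proteins and BAG co-chaperones were followed through 15 RNA sequencing libraries of MHCC-97H, a human cell line established from a liver cell carcinoma. The 8 genes were taken by name from a count table of 19143 gene rows: HSPB1, HSPB8 and CRYAB among the small heat shock proteins, and BAG1, BAG2, BAG3, BAG4 and BAG5. A first round of sequencing held 3 libraries each of untreated cells in a 2D model, untreated cells in a 3D model and an animal model. An additional round held 3 libraries of 3D control cells and 3 of 3D cells given heat. All groups are 1 cell line, with no genetic change named in the labels. The sources used here give no temperature, length of heating, time of collection, kind of 3D model or host species. The labels call the libraries biological replicates without naming separate cultures or animals, so p-values measure the spread between these libraries, which may be technical.

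Small heat shock proteins are ATP-independent chaperones that bind unfolding proteins and hold them in a state from which they can be refolded. BAG proteins share a BAG domain that binds the ATPase domain of HSP70 and speeds the release of nucleotide, which frees the client. BAG3 joins both families: it binds HSPB8 and HSP70 and passes damaged clients to autophagy, while BAG1 links HSP70 to the proteasome. The heat shock factor HSF1 binds repeats of the letters GAA and their reverse complement in promoters of heat-induced genes, and cancer cell lines often hold these chaperones at a raised level.

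Promoter sequences are shown for HSPB1, HSPB8 and BAG3, which stood higher in every heated library than in every control, and for BAG2, which was lower in 3D than in 2D. Each is the 250 bases before the gene start in the RefSeq table of build GRCh38.p14, 5′ to 3′ on the strand of the gene, with capitals for a heat shock element match, GAANNTTC or TTCNNGAA. The intervals are chr7:76302423-76302672 for HSPB1, chr12:119178681-119178930 for HSPB8, chr10:119651130-119651379 for BAG3 and chr6:57172076-57172325 for BAG2, all on the plus strand.
HSPB1: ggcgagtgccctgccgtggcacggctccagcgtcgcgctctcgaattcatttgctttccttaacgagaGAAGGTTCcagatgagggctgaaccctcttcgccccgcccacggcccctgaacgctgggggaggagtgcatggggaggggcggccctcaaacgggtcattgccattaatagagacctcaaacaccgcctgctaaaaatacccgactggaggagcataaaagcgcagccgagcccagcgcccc
HSPB8: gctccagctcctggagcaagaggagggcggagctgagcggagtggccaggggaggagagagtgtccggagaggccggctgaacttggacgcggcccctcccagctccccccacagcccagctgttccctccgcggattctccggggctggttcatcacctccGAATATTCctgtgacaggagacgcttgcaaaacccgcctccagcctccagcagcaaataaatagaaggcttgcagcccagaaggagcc
BAG3: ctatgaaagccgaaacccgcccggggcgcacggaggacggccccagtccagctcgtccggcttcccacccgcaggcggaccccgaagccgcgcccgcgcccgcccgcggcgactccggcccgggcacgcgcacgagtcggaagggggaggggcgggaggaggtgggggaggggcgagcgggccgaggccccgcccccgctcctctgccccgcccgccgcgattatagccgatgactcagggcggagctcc
BAG2: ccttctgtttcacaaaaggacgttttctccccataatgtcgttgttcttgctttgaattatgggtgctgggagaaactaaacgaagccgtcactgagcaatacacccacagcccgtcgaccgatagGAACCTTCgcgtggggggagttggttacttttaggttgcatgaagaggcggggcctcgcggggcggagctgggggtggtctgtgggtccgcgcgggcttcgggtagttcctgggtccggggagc
The table held 7 entries for 6 of the 8 members, of 300 bases each with 50 after the start. CRYAB and BAG4 had no entry.

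GAANNTTC was found in the entries of HSPB1, HSPB8 and BAG2, and in 6.77% of all 35116 entries of the same length. HSPB1 held GAAGGTTC 182 bases before the start. HSPB8 held GAATATTC 88 bases before it and GAAGTTTC from base 5 after it. BAG2 held GAACCTTC 124 bases before its start. BAG1, BAG3 and BAG5 had no GAANNTTC in this window. TTCNNGAA (7.74% of all entries), the 3-unit element in which GAANNTTC is followed by NNGAA, or its complement (0.490%), TATAAA (11.5%) and CCAAT (34.6%) were searched on both strands and were found in no member. GAANNTTC and TTCNNGAA overlap within the 3-unit element. CCGCCC, read on both strands and present in 44.95% of entries, occurred 6 times in BAG3, 5 times in BAG1, 5 times and 1 time in the entries of BAG5, 2 times in each of HSPB1 and BAG2 and 1 time in HSPB8. A match is a run of letters and not a measured binding site.

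Total counts were 12605539 to 18634295 per library. Heat replicate 1 and the 3D replicates 1 and 2 stood apart, their levels following the composition of transcripts: the rank correlation across genes of their departure from 2D with GC content was 0.593 to 0.797, against -0.184 to 0.226 in the other 12. With transcript length this correlation was -0.457 to -0.414, against -0.136 to 0.244 in the other 12. The main results on the members are given with and without these 3 libraries. Levels are CPM, the reads of a gene relative to the scaled library total, with TMM factors over the 15 libraries. Of 12 hepatocellular markers none was at 0 in all 3 libraries of a group, but some were near the floor. GPC3 was at 0 in some libraries and at most 0.272 CPM in any. ALB measured 2.11 to 2.56 CPM in 2D but 116, 90.9 and 283 CPM in the animal libraries. TF measured 0.480 to 0.908 CPM in 2D and 240, 99.2 and 91.7 CPM in the animal libraries. Of 10 hepatocellular markers tested, 4 were called higher and 1 lower in the animal libraries than in 2D, beside 7.78% and 4.25% of all genes. The summed level of the 12 markers ran from 1619.5 to 10383 CPM over the libraries. It was led in all 5 groups by KRT8, which with KRT18, also an epithelial keratin, made up most of it. All 8 members passed the filter on low counts in both rounds.

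Per kilobase of the longest coding transcript, HSPB1 was the most abundant member in all 5 groups, at 699 ± 12.9 CPM per kb in 2D (SD, n = 3), followed by BAG3 at 59.9 ± 1.60, HSPB8 at 37.7 ± 1.24 and BAG1 at 12.9 ± 0.560. BAG5 at 7.48 ± 0.353 and BAG2 at 7.39 ± 0.435 did not differ beyond their spread, nor did BAG4 at 3.98 ± 0.351 and CRYAB at 3.86 ± 0.546. With heat the mean of CRYAB, the lens and muscle chaperone alpha-B crystallin, reached 738 ± 930 CPM per kb, second in the order behind HSPB1, while its spread between libraries was wider than its mean.

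**Figure D1:**
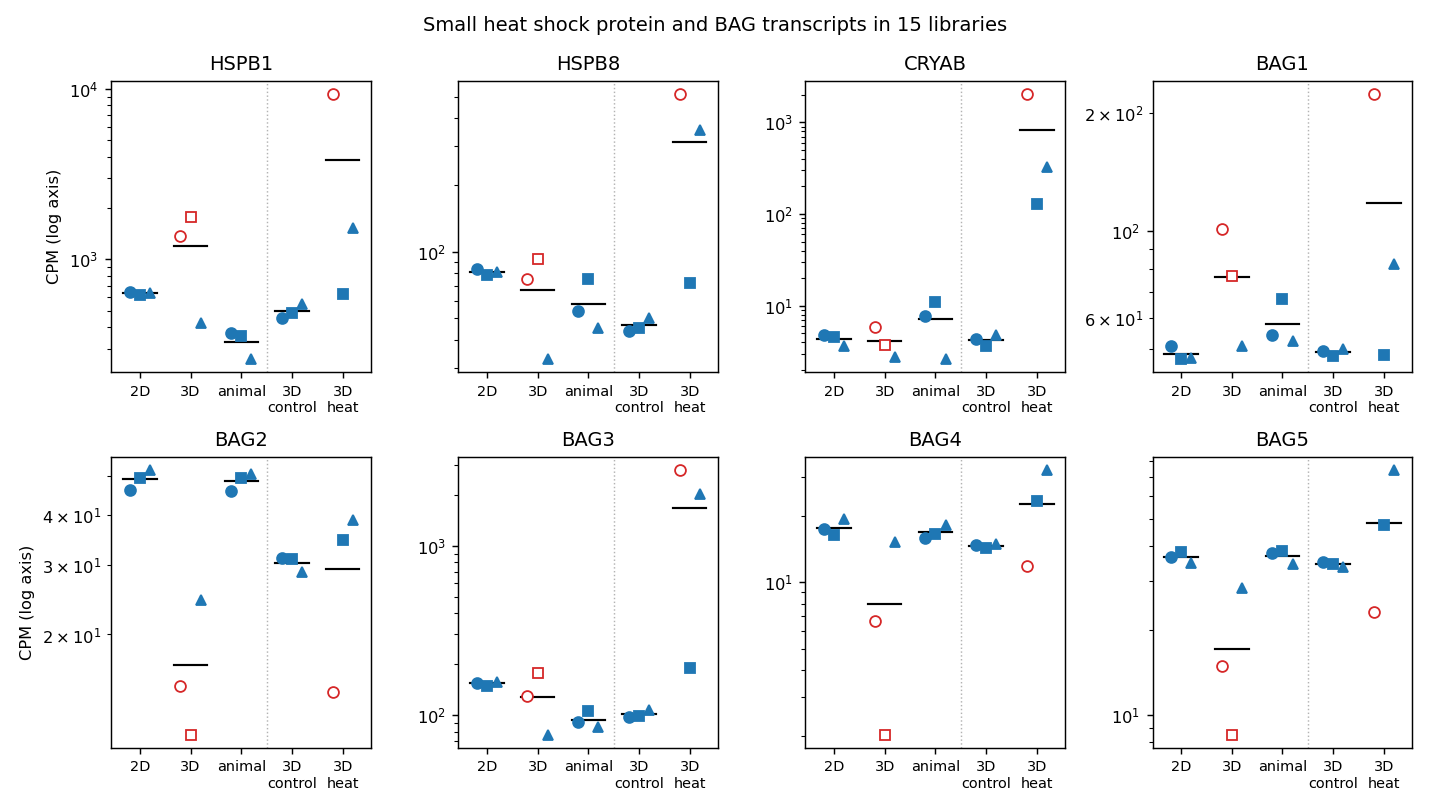
CPM of the 8 members (log axes) in each library of the 5 groups, with the group mean as a bar; circles, squares and triangles are replicates 1, 2 and 3, and open red symbols are the 3 libraries whose levels followed transcript composition. CRYAB lies between 2.64 and 11.0 CPM in the 12 libraries without heat and at 130.2 CPM or more in the 3 with heat; the dotted line parts the 2 rounds.

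Heat against control in the 3D model showed the widest range of levels. HSPB1, HSPB8, CRYAB and BAG3 were higher in 3 of 3 heated libraries than in any control, whereas BAG1, BAG2, BAG4 and BAG5 overlapped with the controls. No member passed the test across all genes in edgeR (adjusted p below 0.05). The background was as low: 0.00792% of 12627 genes were called higher and 0.0158% lower, with 2628 genes at an unadjusted p under 0.05, and DESeq2 called 851 genes higher and 690 lower. DESeq2 called 4 members higher, namely HSPB1, HSPB8, CRYAB and BAG3, beside 6.74% of all genes. A fit of all 15 libraries together in edgeR, chosen after the first fit had been seen, called the same 4 genes, beside 6.52% of all genes. After an offset for GC content and length, HSPB8, CRYAB, BAG3 and BAG4 were called higher and HSPB1 was not (log2 fold change 1.74, adjusted p = 0.0569 in edgeR), beside 5.39% of genes.

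CRYAB measured 4.39, 3.63 and 4.81 CPM in the controls and 2023, 130.2 and 325 CPM in heat replicates 1, 2 and 3. The groups were far apart, the lowest heated library holding 2690 reads against at most 83 in a control. The difference was 194-fold (log2 fold change 7.60 ± 1.23 SE, adjusted p = 0.0875 in edgeR), the 9th largest rise of 12627 genes. Without heat replicate 1, in which it was highest, the log2 fold change was 5.73 and the adjusted p 0.00428 in edgeR, in a fit that called 14% of genes higher. CRYAB shares 626 exon bases with HSPB2 on the opposite strand in GENCODE 29, but HSPB2 held 0 to 3 reads per library.

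BAG3 measured 97.1, 99.4 and 108 CPM in the controls and 2814, 190.0 and 2027 CPM with heat. Heat replicates 1 and 3 stood 27.8 and 19.99 times above the control mean, and replicate 2 stood 1.87 times above it. The fitted difference was 16.7-fold (log2 fold change 4.06 ± 0.94 SE, adjusted p = 0.109 in edgeR). HSPB8, the small heat shock protein that works with BAG3, followed the same order of libraries, with 44.0, 45.2 and 50.3 CPM in the controls and 513, 72.3 and 355 CPM with heat. Its difference was 6.78-fold (log2 fold change 2.76 ± 0.67 SE, adjusted p = 0.118 in edgeR). Without heat replicate 1 both were called, BAG3 with a log2 value of 3.45 (adjusted p = 0.0351 in edgeR) and HSPB8 at 2.20 (adjusted p = 0.0422).

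HSPB1, the abundant phosphorylated chaperone HSP27, measured 457, 488 and 549 CPM in the controls and 9288, 629 and 1534 CPM with heat. In heat replicate 1 it took 0.608% of all counts. Its difference was 7.72-fold (log2 fold change 2.95 ± 0.99 SE, adjusted p = 0.175 in edgeR), and without that library the log2 fold change was 1.12 (adjusted p = 0.0619). The exact permutation test gave p = 0.1 for HSPB1, HSPB8, CRYAB and BAG3, the smallest that 3 libraries against 3 allow. Having every heated library above every control was itself common, at 17.5% of genes. No member lay below the controls in all 3, as 19.1% of genes did.

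BAG1, the founding BAG protein and a partner of BCL2, measured 49.4, 48.1 and 50.1 CPM in the controls and 223, 48.4 and 82.3 CPM with heat, so that heat replicate 2 lay within the controls (log2 fold change 1.27 ± 0.55 SE, adjusted p = 0.250 in edgeR). BAG4, which binds TNF receptor 1, measured 14.8, 14.3 and 15.02 CPM in the controls and 11.8, 23.5 and 32.4 CPM with heat. BAG5, with several BAG domains, measured 35.1, 34.3 and 33.6 CPM in the controls and 23.2, 47.4 and 74.4 CPM with heat. Both were below the controls in heat replicate 1 and above them in replicates 2 and 3. Without replicate 1, BAG4 rose by 0.93 (adjusted p = 0.0179 in edgeR) and BAG5 by 0.83 (adjusted p = 0.0317) on the log2 scale. BAG2, an inhibitor of the ubiquitin ligase CHIP, measured 31.1, 30.9 and 28.7 CPM in the controls and 14.3, 34.6 and 38.9 CPM with heat, again lowest in replicate 1, with an adjusted p of 0.968 in edgeR.

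**Figure D2:**
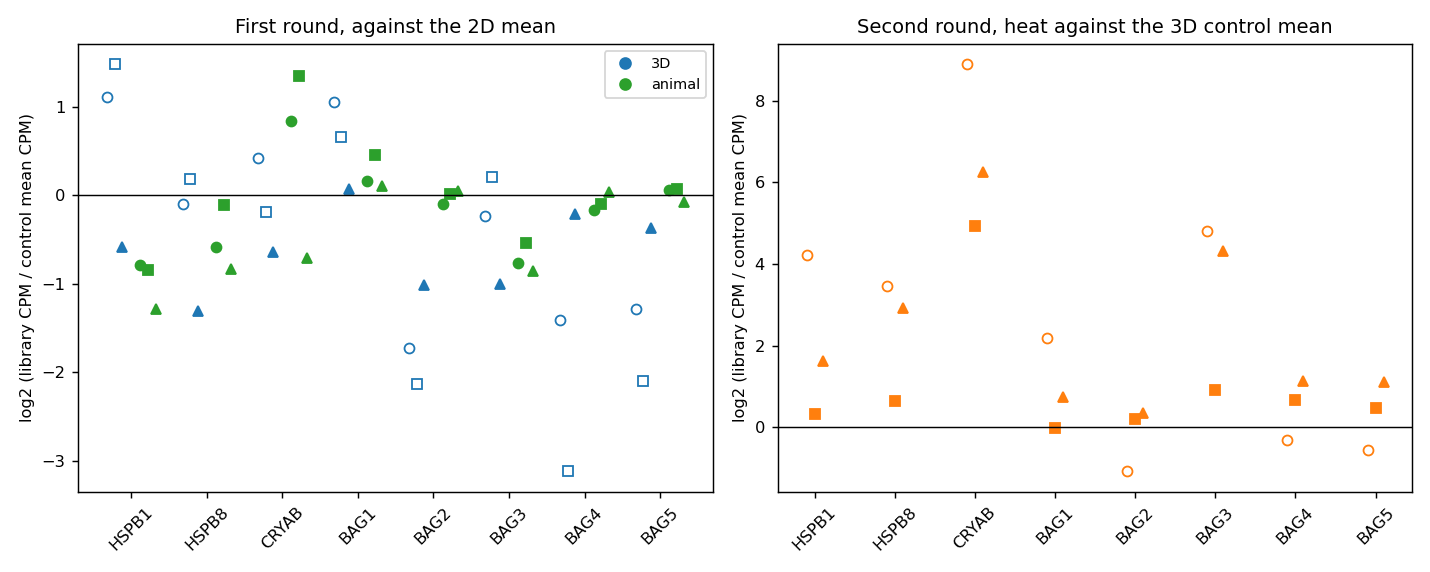
log2 ratio of each library's CPM to the mean of the 2D libraries (left, 3D and animal) or of the 3D controls (right, heat), for the 8 members; circles, squares and triangles are replicates 1, 2 and 3, and open symbols are the 3 libraries whose levels followed transcript composition. On the right, HSPB1, HSPB8, CRYAB and BAG3 lie above 0 in all 3 heated libraries, and BAG4 and BAG5 lie below 0 in replicate 1 only.

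Ratios of reads between members varied less than their levels in some pairs. CRYAB counted 0.218, 0.207 and 0.212 reads for each HSPB1 read in heat replicates 1, 2 and 3, while its level in them ran from 130.2 to 2023 CPM. In the controls the ratio was 0.00744 to 0.00961. BAG3 counted 5.48, 2.63 and 5.71 reads for each HSPB8 read with heat, against 2.14 to 2.21 in the controls, so that all heated libraries lay above all controls. BAG3 per BAG5 reads were 121, 4.01 and 27.2 with heat and 2.76 to 3.20 in the controls. These ratios are not per length and compare groups, not the abundance of a pair.

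Among the genes these proteins work with, the 10 HSP70 and partner genes had a median log2 fold change of 3.28 with heat and 20 listed HSF1 targets one of 1.59, beside 0.10 over all genes and 2.01 over the 8 members. Without heat replicate 1 these medians were 2.55, 1.22, 0.03 and 1.03. None of the 60 tested genes in the 8 lists of pathway genes was called in edgeR. DESeq2 called 15 of them higher, beside 6.74% of all genes. Without heat replicate 1, 13 were called higher and 3 lower in edgeR, beside 1795 and 1896 of all 12830 genes. Chosen after their values were seen, HSPA6, the strictly inducible HSP70, measured 0.870 to 1.42 CPM in the controls and 2212, 108 and 1125 CPM with heat, and HSPA1A was 39.2-fold higher (adjusted p = 0.0976 in edgeR), or 23.9-fold without heat replicate 1 (adjusted p = 0.0226). HSPA1A and HSPA1B are near-identical copies whose reads the counting could split. DNAJB1, the HSP40 that delivers clients to HSP70, measured 173 to 186 CPM in the controls and 5269, 337 and 2293 CPM with heat. The autophagy list around BAG3 had a median of 0.37, and the kinases of HSPB1 one of 0.11.

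3D against 2D in the first round asks how the dimension of the culture bears on these genes. BAG2 was the 1 member called, 2.98-fold lower in 3D, and no member was called higher. Over all genes 20% of 12925 were called higher and 12.9% lower, so 1 of 8 lower is near that background. No member lay above 2D in all 3 libraries, as 24.9% of genes did. The median log2 fold change was -0.32 over the members and 0.03 over all genes.

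BAG2 measured 46.1, 49.5 and 51.9 CPM in 2D and 14.8, 11.2 and 24.4 CPM in 3D, with no overlap (log2 fold change -1.57 ± 0.29 SE, adjusted p = 0.00598 in edgeR). Without 3D replicates 1 and 2 it was still called, at -1.02 (adjusted p = 0.000508 in edgeR, taking the spread of the lone 3D library from the remaining groups). The call ended after an offset for GC content and length, at -0.15 (adjusted p = 0.725 in edgeR). BAG2 shares 2842 exon bases with RAB23 on the opposite strand in GENCODE 29, and the strand setting of the counting is not given in the sources used here, so part of its reads are uncertain. RAB23, a RAB GTPase, averaged 11.4 ± 1.11 CPM in 2D and 2.73 ± 2.20 CPM in 3D and was called 4.17-fold lower (adjusted p = 0.0206 in edgeR).

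BAG4 measured 17.4, 16.4 and 19.4 CPM in 2D and 6.67, 2.04 and 15.3 CPM in 3D, and BAG5 36.3, 38.2 and 34.7 CPM against 14.9, 8.51 and 28.2 CPM. All 3D libraries lay below all 2D libraries for both, as for 25.2% of genes, with log2 fold changes of -1.16 ± 0.57 SE (adjusted p = 0.142 in edgeR) and -1.10 ± 0.39 SE (adjusted p = 0.0555). Without 3D replicates 1 and 2, which leaves 1 library in 3D, the values were smaller, at -0.22 for BAG4 and -0.37 for BAG5. BAG5 was called in 5 of 15 alternatives, with values from -1.70 to -0.37. BAG4 shares 198 exon bases with LSM1 and BAG5 shares 72 with KLC1, both on the opposite strand. BAG1 measured 51.1, 47.3 and 47.5 CPM in 2D and 101, 76.7 and 51.0 CPM in 3D, where replicate 3 lay within the 2D range (adjusted p = 0.0878 in edgeR).

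HSPB1, HSPB8 and BAG3 differed between the 3D libraries. HSPB1 measured 646, 623 and 639 CPM in 2D and 1378, 1777 and 423 CPM in 3D, above 2D in replicates 1 and 2 and below it in replicate 3. Its log2 fold change was 0.86 ± 0.42 SE (adjusted p = 0.142 in edgeR). After the offset it turned to -0.80 (adjusted p = 0.0126 in edgeR), in a fit that called 16.5% of genes lower. Without replicates 1 and 2, which leaves 1 library in 3D with no measure of its spread, it turned to -0.59. It stayed positive in the other 13 of 15 alternatives, and without 3D replicate 3 it was called higher at 1.25 (adjusted p = 0.000126 in edgeR), beside 34.7% of genes. BAG3 measured 155, 149 and 157 CPM in 2D and 130.5, 178 and 76.8 CPM in 3D. HSPB8 measured 83.8, 78.4 and 80.9 CPM in 2D and 75.6, 92.5 and 32.8 CPM in 3D. In the lone 3D replicate 3 against 2D, the log2 fold change was -1.01 for BAG3 and -1.31 for HSPB8. CRYAB, at 3.63 to 4.80 CPM in 2D and 2.76 to 5.82 CPM in 3D, rested on 45 to 90 reads per library, and its groups overlapped.

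**Figure D3:**
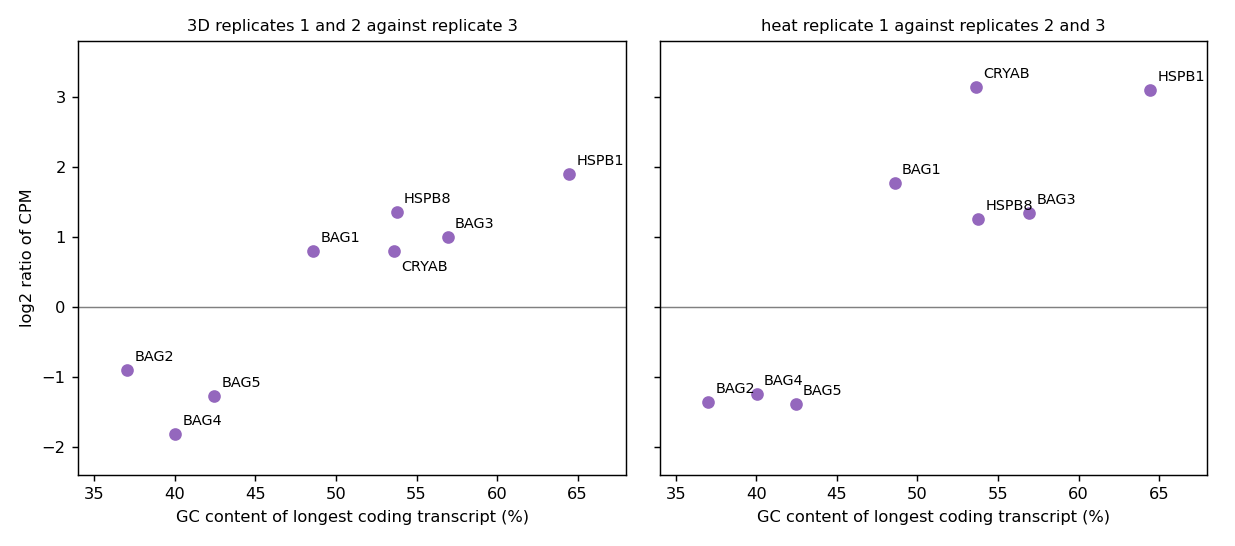
log2 ratio of mean CPM between the libraries whose levels followed transcript composition and the others of their group, against the GC content of each member's longest coding transcript in GENCODE 29 (left, 3D replicates 1 and 2 against 3; right, heat replicate 1 against 2 and 3). BAG2, BAG4 and BAG5, at 37.0 to 42.4% GC, lie below 0 on both sides, and the other 5 members, at 48.6 to 64.5% GC, lie above it.

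The direction of these library differences divided the members by transcript GC content in both rounds. HSPB1, with 64.5% GC in a transcript of 909 bases, was higher by 1.90 on the log2 scale in 3D replicates 1 and 2 than in replicate 3, and by 3.10 in heat replicate 1 than in replicates 2 and 3. BAG4, with 40.0% GC in 4453 bases, was lower in them, with log2 ratios of -1.81 and -1.24. The part of composition in the group differences was not tested beyond the fits without these libraries and with the offset.

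Of the 61 tested pathway genes, 11 were called higher and 12 lower in 3D than in 2D, beside 20% and 12.9% of all genes. The other nucleotide exchange factors of HSP70 gave 1 higher and 3 lower of 8: SIL1, the exchange factor of the endoplasmic reticulum, was 2.74-fold higher, while HSPH1 was 5.04-fold lower and HSPA4 2.91-fold lower. Of 20 HSF1 targets, 7 were lower, among them the mitochondrial chaperonin HSPD1 (2.96-fold), and 2 were higher, SERPINH1, a collagen chaperone (2.14-fold), and DEDD2 (2.04-fold). In the rest of both families, HSPB7, a small heat shock protein of heart muscle, was 3.95-fold higher at 4.29 to 5.82 CPM, and BAG6 was 1.82-fold higher, 2 of 5 tested. Among clients and partners of BAG proteins, BCL2 was 4.37-fold lower at under 3 CPM, and TNFRSF1A, the receptor that BAG4 binds, was 2.06-fold higher. After the GC and length offset the TNFRSF1A call ended (log2 fold change 0.24, adjusted p = 0.176 in edgeR), while 3D replicate 3 alone gave 1.31-fold (adjusted p = 0.00563). With that library as the only one in 3D, 14 of the 20 HSF1 targets were called lower and 1 higher, beside 23.6% of all genes called lower. In that fit the log2 fold change was 0.09 for BAG6 and -0.02 for DEDD2, and SIL1 was 1.75-fold higher. BCL2 was 8.17-fold lower there, resting on 5 reads in the lone 3D library against 44 to 55 reads in the 2D libraries.

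The animal model against 2D gave no called member in edgeR, beside 7.78% of genes called higher and 4.25% lower. HSPB1 was lower in all 3 animal libraries, at 369, 355 and 262 CPM (log2 fold change -0.95 ± 0.42 SE, adjusted p = 0.189 in edgeR), and BAG3 likewise, at 90.8, 106 and 85.2 CPM (-0.71 ± 0.27 SE, adjusted p = 0.128). HSPB8 was also below every 2D library, at 54.0, 75.4 and 45.3 CPM, an order that 32.7% of genes shared. With the 2 groups fitted alone, where the spread of the 3D libraries does not enter, HSPB1 (adjusted p = 0.000532 in edgeR), BAG3 (0.000445) and HSPB8 (0.0452) were called lower. That fit called 27.9% of all genes lower, so 3 of 8 is near its background. BAG1 was above every 2D library, at 54.4, 67.0 and 52.5 CPM, as were 33.8% of genes, with an adjusted p of 0.587 in edgeR. BAG2, BAG4 and BAG5 had log2 fold changes of -0.01, -0.07 and 0.02. CRYAB measured 7.76, 11.0 and 2.64 CPM, above 2D in replicates 1 and 2 and below it in replicate 3.

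Some markers of other cells moved with the animal libraries. The 10 fibroblast and pericyte markers summed to 167 to 488 CPM there and to 68.9 to 72.8 CPM in 2D, with 5 of 7 tested called higher and THY1 at 0; COL1A1, the leading one, averaged 141 ± 94.2 CPM. Macrophage and leukocyte markers summed to 159 to 217 CPM against 102 to 108 CPM in 2D, most of it CD68, with TYROBP at 0. Of the 5 tested, 3 were called higher, beside 7.78% of all genes. CD74 measured 22.6, 24.0 and 18.4 CPM against 1.27 to 1.92 CPM in 2D, and LYZ 2.47 to 9.19 CPM against at most 0.0533 CPM. In the 3D libraries the macrophage and leukocyte sum reached 387 to 494 CPM. Endothelial markers summed to 44.4 to 66.5 CPM against 47.0 to 59.3 CPM in 2D, with 2 of 3 tested called higher. Nerve and glia markers summed to 181 to 220 CPM against 172 to 181 CPM in 2D, with 0 of 2 called. The 10 muscle markers, listed because muscle holds much CRYAB and HSPB8, summed to 6.40 to 6.55 CPM in the animal libraries against 14.2 to 15.8 CPM in 2D, with MYL1 and MYOG at 0. Most of that sum was ACTA1, the 1 marker tested, which was called lower and averaged 4.63 ± 0.446 CPM in the animal libraries against 14.8 ± 0.997 CPM in 2D. DES, TNNT3 and CKM were at 0 in every 2D library, while DES reached 0.180 to 2.04 CPM, CKM 0.0681 to 0.902 CPM and TNNT3 at most 0.360 CPM in the animal libraries. In such bulk samples fewer cells of a type and less RNA per cell cannot be told apart, and the part of other cells in the members' levels was not tested.

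Of the pathway genes, 3 were called higher and 1 lower in the animal libraries than in 2D, beside 7.78% and 4.25% of all genes. HSPA6 was 17.4-fold higher at 26.9, 38.9 and 3.00 CPM (adjusted p = 0.0114 in edgeR), SERPINH1 2.04-fold higher and GABARAPL1, an autophagosome protein, 1.92-fold higher. WIPI1, which acts in autophagosome formation, was 2.76-fold lower. In HSPA6 and CRYAB alike, animal replicates 1 and 2 were high and replicate 3 low.

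The animal model against 3D gave 3 called members. HSPB1 was 3.50-fold lower (adjusted p = 0.0114 in edgeR), BAG2 2.95-fold higher (adjusted p = 0.00434) and BAG5 2.17-fold higher (adjusted p = 0.0446), beside 22.9% of genes called lower and 18.6% higher. BAG2, BAG4 and BAG5 lay above 3D in every animal library, as did 27.5% of genes, and HSPB1 below it, as did 22.7%. This comparison shares its 3D libraries with 3D against 2D. Without 3D replicates 1 and 2, BAG2 (log2 fold change 0.99, adjusted p = 0.000586 in edgeR) and BAG5 (0.37, adjusted p = 0.0286) were still called, beside 24.6% of genes called higher, and HSPB1 was not (-0.38, adjusted p = 0.102). After the GC and length offset none of the 3 was called: HSPB1 stood at -0.30, BAG5 at 0.32 and BAG2 at -0.14. The BAG5 call was kept in 6 of 15 alternatives. Among the pathway genes 13 were higher and 14 lower, including HSPH1 (higher by 2.58 on the log2 scale) and HSF1 itself (3.41-fold lower, or 1.70-fold without 3D replicates 1 and 2).

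**Figure D4:**
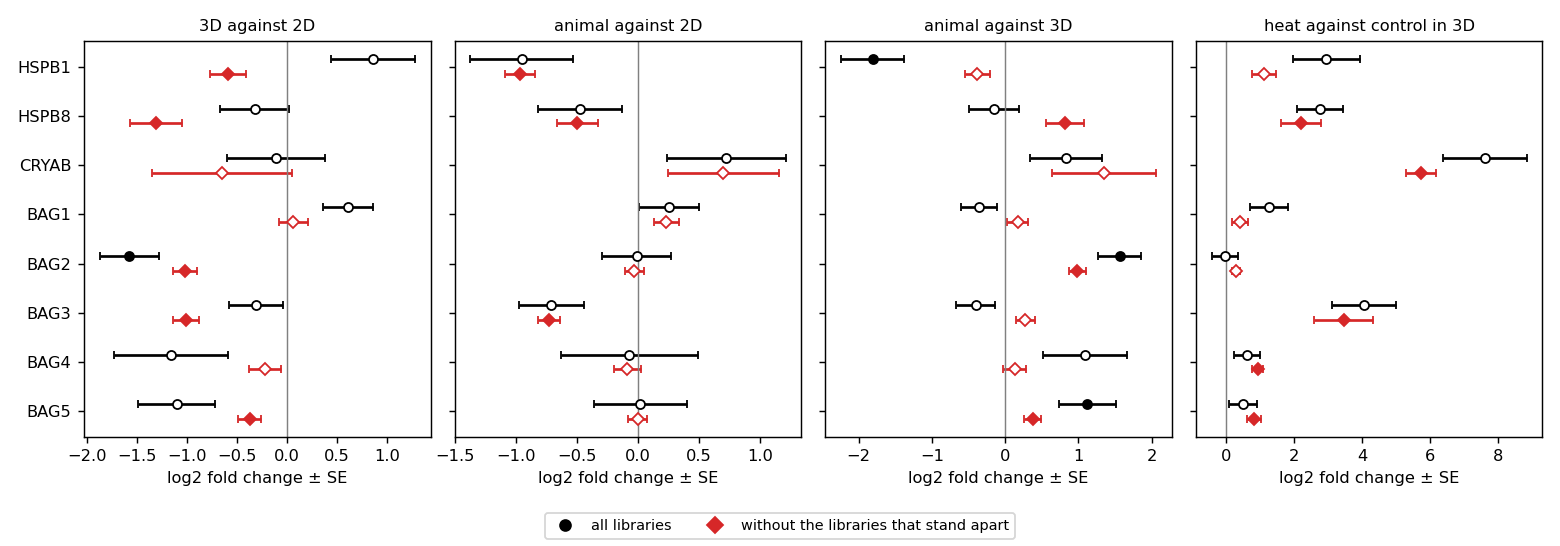
log2 fold change ± SE from edgeR of the 8 members in the 4 comparisons, with all libraries (black circles) and without those whose levels followed transcript composition (red diamonds: heat replicate 1 left out, or 3D replicates 1 and 2); filled symbols have an adjusted p below 0.05. In 3D against 2D, HSPB1 lies at 0.86 with and at -0.59 without these libraries. Red diamonds in 3D against 2D and in animal against 3D rest on a lone 3D library, whose spread could not be measured.

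Across the 5 groups, the mean of 7 members was highest with heat, but only CRYAB and BAG3 did so without overlap with the next group. Without heat replicate 1, an average added after seeing the data, HSPB1 (1082 CPM against 1193 in 3D) and BAG1 (65.3 against 76.4 in 3D) were no longer highest with heat, which left 5 members. The share of all genes with these orders of groups was not counted, so the counts of members have no background here. BAG2 was highest in 2D (49.2 ± 2.89 CPM) and animal libraries (48.7 ± 2.58 CPM), which did not differ beyond their spread. The 3D libraries of the first round and the 3D controls of the second carry the same model name. BAG2 differed in level between them, averaging 16.8 ± 6.81 and 30.2 ± 1.33 CPM, without overlap. HSPB1 averaged 1193 ± 696 and 498 ± 47.0 CPM, but its libraries overlapped. They measured 1378, 1777 and 423 CPM in 3D and 457, 488 and 549 CPM in the controls. The round and the handling of the cells cannot be told apart here. Likeness was measured as Pearson's r of log2 CPM over the 15 libraries among 9453 genes of at least 10 CPM on average, a description in which the libraries share their composition and the heated ones lie far from the rest. BAG3 was most like DNAJB1 (0.985) and ATP6V1B2 (0.982), HSPB8 most like DNAJB1 (0.980) and SRRT (0.979), and CRYAB most like FOSB (0.980) and DUSP10 (0.973). HSPB1 was most like TMEM11 (0.982) and SAP30BP (0.982), and BAG1 most like ABT1 (0.968) and KRT10 (0.965). BAG2 was most like SLC35G1 (0.981) and PNPT1 (0.980), BAG4 most like SNRNP48 (0.990) and SOCS6 (0.985), and BAG5 most like OTUD4 (0.991) and OTUD3 (0.987). Within the members, r was 0.974 for HSPB8 with BAG3, 0.966 for BAG4 with BAG5 and -0.69 for HSPB1 with BAG2.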

How the data were processed

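RNA of 15 MHCC-97H libraries was sequenced as single-end reads primed with random hexamers, per the labels' protocols. Per the submitters' processing notes, the tool HISAT2 (no version) and the build hg19 were used. The counting tool, annotation, strand setting and removal of host reads are not given in the sources used here. The authors deposited raw read counts per gene symbol. No coordinates are given for counts, since the annotation used for overlaps, GC content and length (GENCODE 29, 99.1% of tested genes matched) is of another build. In 27 rows the symbol had become a date (0.168% of counts), and these were never named.

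Counts were fitted in R 4.3.3 with edgeR 4.0.16 (filterByExpr, TMM, robust quasi-likelihood test, Benjamini-Hochberg adjustment over all genes), on the 9 libraries of the first round and separately on the 6 of the second. SE is the log2 fold change over the root of F. Log2 CPM for likeness used a prior count of 2. Alternatives were DESeq2 1.42.0, 2 other scalings, other filters, a replicate block, a GC and length offset (splines with 5 degrees of freedom) and omission of libraries. The 15-library fit for heat was added after seeing the data. The scripts were tested on simulated data. Same-numbered libraries did not deviate together (correlations -0.19 to 0.13), so the numbers were not treated as pairs.

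The members and the 14 lists (8 of pathway genes, 6 of cell markers) were chosen with earlier results of these data known. All 8 members are named. From each pathway list the called genes with the smallest adjusted p are named, up to 2 per direction and comparison, in part only, with the 2 most alike genes of each member. Others are introduced as chosen after their values were seen. RAB23, LSM1, KLC1 and HSPB2 are named for their overlap with members. No molecular identifiers are mentioned, so reads are not independent molecules.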

Additional observations from a re-analysis of the deposited data

How the results depend on the processing

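Each first-round comparison was recomputed under 15 alternatives and heat under 14. Of the member fold changes, 386 kept direction and side of the threshold, 48 came to pass it, 12 no longer passed it and 26 changed sign. Where no cause is named it was not tested. Omission of libraries and the 2-group fits also change how many samples are fitted. For 3D against 2D, the called members were 1 higher and 2 lower with DESeq2 and 2 lower with median-ratio scaling. With the GC and length offset they were 1 higher and 4 lower. HSPB1 turned to -0.80 with the offset and to -0.59 without 3D replicates 1 and 2. Over all 12925 genes, DESeq2 called 3363 higher and 2225 lower, median-ratio scaling 2787 and 1628, and the offset 2074 and 2135. Called pathway genes that were higher numbered 7 without a filter, 7 with the offset and 4 with the 2 groups alone. Over all genes those fits called 2367, 2074 and 1695 higher. Fits without 3D replicates 1 and 2 leave 1 library in 3D, so for this comparison their counts of called genes are not given here.

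For animal against 2D, 2 members were called lower with the offset, and 3 each with the 2 groups alone and without 3D replicates 1 and 2. Pathway genes called lower numbered 7 with DESeq2, 2 with upper-quartile scaling, 11 with the offset, and 24 in each of those last 2 settings, where 11 and 10 were higher. Over all genes, DESeq2 called 1007 lower, upper-quartile scaling 506 and the offset 2452. The 2 groups alone called 3538 lower and 3751 higher of 12697 genes. Without 3D replicates 1 and 2, a fit that keeps 3 libraries each in animal and 2D, 3696 were lower and 3865 higher of 13604. The 3 of 8 members lower are therefore near the background of these last 2 fits. BAG5, near 0, changed sign to -0.0052 with DESeq2 and with median-ratio scaling, -0.0051 without a filter, -0.11 with the offset and -0.0010 without 3D replicates 1 and 2. Upper-quartile scaling gave BAG2 0.061 and BAG4 0.0039.

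For animal against 3D, upper-quartile scaling, the offset and the 2 groups alone called 2414, 2321 and 996 of all genes higher. In each of them 1 member was called higher. The count called lower was 0 with the offset and 0 without 3D replicates 1 and 2, where 25 pathway genes were higher. With the offset HSPB8 turned to 0.23, BAG3 to 0.21 and BAG2 to -0.14. Without 3D replicates 1 and 2, HSPB8 turned to 0.81, BAG3 to 0.28 and BAG1 to 0.17. Upper-quartile scaling gave HSPB8 0.0013.

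For heat, 4 members were called higher with DESeq2, with the offset and with 15 libraries fitted together, the last chosen after seeing the data, beside 15, 9 and 16 pathway genes. The genes differed: the offset called BAG4 and not HSPB1. BAG2 turned to 0.17 with the offset.

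With the replicate number as a block, pathway genes called higher in 3D against 2D numbered 5, those lower in animal against 2D numbered 2, 1 member was higher in animal against 3D, and with heat CRYAB (adjusted p = 0.0296 in edgeR) was the 1 member called, with 1 pathway gene. Over all genes the block fit called 1909 higher in 3D against 2D, 322 lower in animal against 2D and 2250 higher in animal against 3D. The replicate numbers do not pair the libraries, by the correlations of -0.19 to 0.13.

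Leaving out 1 replicate at a time gave 0 to 2 members higher and 1 to 3 lower in 3D against 2D. It also gave 3 to 26 pathway genes higher and 8 to 20 lower, beside 1132 to 4560 and 663 to 4933 of all genes. In animal against 2D it gave 0 to 3 pathway genes higher and 1 to 2 lower, beside 446 to 768 and 199 to 386 of all genes. In animal against 3D it gave 1 to 3 members higher and 1 to 3 lower. It also gave 11 to 17 pathway genes higher and 9 to 21 lower, beside 1377 to 5596 and 1943 to 4536 of all genes. With heat it gave 0 to 5 members and 0 to 16 pathway genes higher, and 0 to 3 pathway genes lower. Over all genes these heat fits called 0 to 1795 higher and 0 to 1896 lower. The 5 members came without heat replicate 1, and 3 (HSPB8, CRYAB and BAG3) without replicate 2. Signs changed for CRYAB in 3D against 2D (-0.44 to 0.088), for BAG2 (-0.064 to 0.030) and BAG5 (-0.026 to 0.057) in animal against 2D, for HSPB8 in animal against 3D (-0.47 to 0.13) and for BAG2 with heat (-0.29 to 0.28).

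Over all genes, 3D against 2D called 4560 higher and 4933 lower without 3D replicate 3, and 2074 and 2135 with the offset, against 2586 and 1661. Animal against 2D called 3751 and 3538 with the 2 groups alone and 1629 and 2452 with the offset, against 1006 and 549. Heat called 1795 and 1896 without heat replicate 1, 585 and 460 without replicate 2, 681 and 701 with the offset, 22 and 8 with the block, and 862 and 649 with 15 libraries. CRYAB, at 44 to 162 reads per library without heat, and BAG4, at 28 to 364, are limited by depth.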
